A study of Mus musculus with 16 samples.

Results

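Bivalent chromatin carries H3K4me3 and H3K27me3 at the same place, and the regions described here are the 1421 H3K4me3 regions of mouse hematopoietic stem cells that lay under H3K27me3 in every library but 1. They were chosen by the peak lists themselves. Peaks of the 4 H3K4me3 libraries were merged into 20660 regions, 14489 of which were held by all 4 libraries and are called shared. A shared region was selected as bivalent when an island of H3K27me3 from each of 5 libraries overlapped it by at least 1 bp. The 1421 regions made up 9.81% of the shared and 6.88% of all merged regions. The word bivalent here means overlap of 2 peak lists, since the lists come from populations of cells and do not show that both marks sat on 1 nucleosome or in 1 cell.

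The study profiled histone methylation in bone marrow stem cells of C57BL/6 mice, wild type by the series text, sorted as SP-KSL-CD150+, a gate of dye exclusion and surface markers used to enrich long-term stem cells. Mice were 4 months old (young) or 24 months old (old), and no treatment or transgene is named. H3K4me3 had 2 libraries per age (young 7 and 8, old 7 and 8), H3K27me3 had 3 (young 1 to 3, old 1 to 3) and H3K36me3 had 3 (young 4 to 6, old 4 to 6), named by the replicate numbers in the labels. The labels use the wording technical replicate of biological replicate without explaining it, and give no word on separate or pooled animals. The p-values here therefore reflect spread among samples only, which can be technical. The data are peak lists without gene names, so the sorted cells could not be checked against marker genes, and regions are given by position on the mouse build mm9.

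H3K4me3 is laid down by MLL and SET1 enzymes at promoters, mostly those with CpG islands, and marks sites of transcription start. H3K27me3 is made by Polycomb repressive complex 2, whose catalytic subunits are EZH1 and EZH2, and is tied to repression. Promoters that carry both are known in embryonic stem cells and in blood stem cells mainly from genes of development and lineage choice, such as the Hox genes, which are kept silent or at low levels. H3K36me3 is placed by SETD2, which travels with elongating RNA polymerase II, and lies over the bodies of transcribed genes. On a nucleosome, H3K36me3 is also known to hinder Polycomb repressive complex 2 in the test tube.

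A pair of libraries stood apart. Young replicate 1 of H3K27me3 held 46988 islands over 169 Mb, within the range of the other lists, but touched only 107 of the 1421 bivalent regions (7.53%). The rule leaves it out, and requiring it too would keep 107 regions. Young replicate 4 of H3K36me3 held 6399 peaks over 5.90 Mb, against 39362 to 84437 peaks in the other 5 libraries of that mark. The H3K4me3 lists held 16258 to 19923 peaks and the 5 H3K27me3 lists used by the rule held 17752 to 47197 islands. No source used here gives the read depth.

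The H3K4me3 at bivalent regions was short and of moderate score compared with the other 13068 shared regions. A merged bivalent region had a median length of 1623 bp (interquartile range 1325 to 2040 bp, full range 705 to 6992 bp), and the other shared regions had a median of 2073 bp (interquartile range 1624 to 2670 bp). Lengths of 4 kb or more were found in 29 bivalent regions (2.04%) and in 746 of the others (5.71%). A longer region has more room to be touched by an island, so the rule favours long regions, and the lengths are given as a description.

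In single libraries the median H3K4me3 length over a bivalent region was 1365 bp in young 7, 1171 bp in young 8, 1216 bp in old 7 and 1416 bp in old 8. The corresponding medians of the other shared regions were 1846, 1689, 1622 and 1851 bp. In every one of the 4 libraries the bivalent regions were shorter, by more than the libraries differed among themselves, and the 2 ages overlapped. The peaks of young 8 and old 7 filled less of the merged bivalent region, with medians of 74.6% and 76.5% of its length, than those of young 7 (86.0%) and old 8 (89.9%).

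The authors' deposited score of an H3K4me3 peak, whose unit is not stated, gathers at 3100 in these lists. A score of at least 3100 was reached by 20.3% of bivalent regions in young 7, 19.9% in young 8, 19.4% in old 7 and 16.3% in old 8. The same share was 71.2%, 71.8%, 70.7% and 70.8% over the other shared regions. Regions touched by 1 to 4 of the 5 H3K27me3 libraries lay between, at 46.9%, 47.0%, 45.4% and 42.6%. The highest peak of a bivalent region had a median score of 1304 in young 7 and 1317 in young 8, against 1211 in old 7 and 1031 in old 8. Both old medians were thus below both young ones. Over whole lists the share of peaks at 3100 was also lower in old (50.5% and 46.9%) than in young libraries (58.1% and 59.0%). The part of that shift in the bivalent medians was not tested. Rank within a list went the other way. The median share of the list that scored lower was 27.7% in young 7, 26.5% in young 8, 35.6% in old 7 and 38.3% in old 8. For the other shared regions it was 41.1%, 40.3%, 48.8% and 52.3%, also higher in old.

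**Figure D1:**
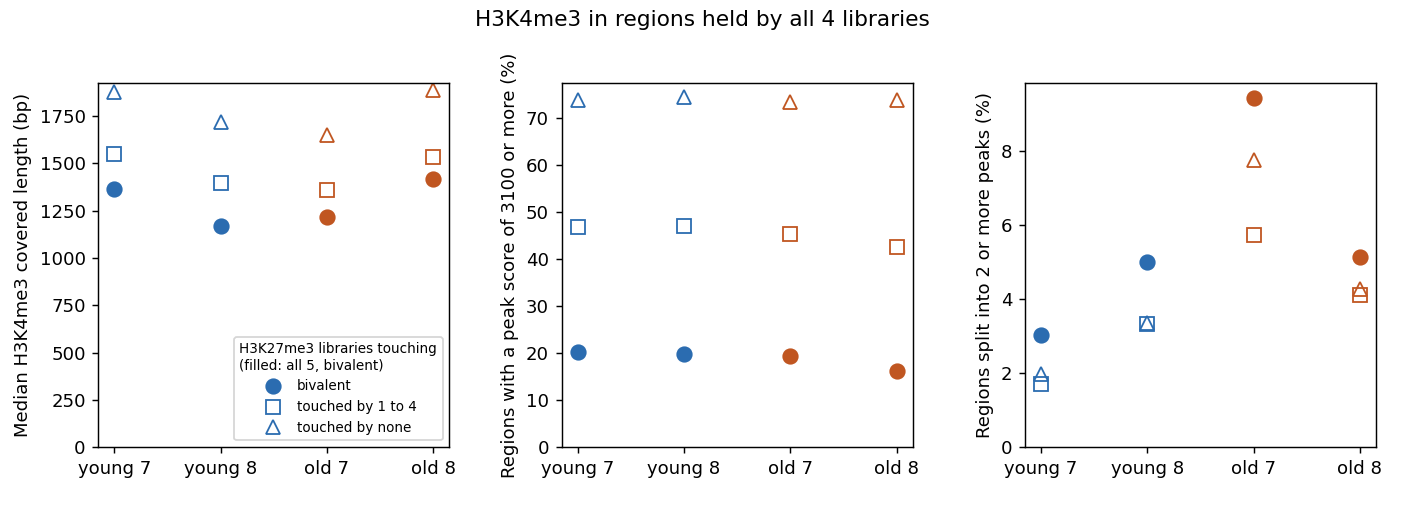
H3K4me3 over shared regions in each of the 4 libraries (blue young, orange old), by how many of the 5 H3K27me3 libraries touched the region. The left panel shows the median covered length in bp, the middle panel the percent of regions with a peak score of at least 3100, and the right panel the percent split into several peaks; filled circles are the 1421 bivalent regions, which sit lowest in the first 2 panels (1171 to 1416 bp and 16.3 to 20.3%).

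Bivalent regions were also more often broken into several peaks. A library had at least 2 separate H3K4me3 peaks in 43 bivalent regions for young 7 (3.03%), 71 for young 8 (5.00%), 134 for old 7 (9.43%) and 73 for old 8 (5.14%). Over the other shared regions the shares were 1.96%, 3.34%, 7.54% and 4.25%, so the bivalent share was higher in 4 of 4 libraries. Old 7 was the most fragmented for both kinds of region. With 4 libraries, the smallest two-sided p of a sign-flip test is above 0.05, and no test was run on this count.

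The longest bivalent H3K4me3 regions, named by their mean length over the 4 libraries, fell into 2 kinds. The region at chr2:56963389-56970380 was covered over 6517 bp in young 7, 5769 bp in young 8, 6538 bp in old 7 and 6992 bp in old 8. The region at chr4:48055151-48061623 was nearly as long and more even, with 6394, 6307, 6384 and 6287 bp in the same order. Both had a peak score of 3100 in all 4 libraries, and H3K27me3 covered only a portion of each.

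At chr2:56963389-56970380 the 5 H3K27me3 libraries covered 3612 to 5412 bp of the 6992 bp, and at chr4:48055151-48061623 they covered 3023 to 4023 bp of the 6473 bp. The region at chr2:9795799-9802221 was at the edge of the rule, with H3K27me3 over 621 bp in young 2, 621 bp in young 3, 221 bp in old 1, 1421 bp in old 2 and 21 bp in old 3. Its H3K4me3 covered 4463, 4803, 4842 and 6423 bp of 6423 bp. It thus adjoins a domain of H3K27me3, with islands of 17800 to 22200 bp in the 5 libraries, more than it lies inside one.

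The other 2 long regions lay wholly inside H3K27me3 in all 5 libraries. At chr11:96142448-96149130 the H3K4me3 covered 4657 bp in young 7, 3541 bp in young 8, 6206 bp in old 7 and 5962 bp in old 8, of 6683 bp. At chr2:115886737-115893468 it covered 4273, 3462, 5776 and 6539 bp of 6732 bp. At both positions the 2 old libraries exceeded the 2 young ones. Neither region had H3K36me3 within 10 kb in any of the 6 libraries, while the 3 long regions that were only partly under H3K27me3 had some.

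The fill by H3K27me3 was lower in longer H3K4me3 regions, which the rule itself favours, since a long region can enter with a small overlap and a short one hardly can. When the regions were put into 4 groups of like size by mean H3K4me3 length, H3K27me3 covered 96.0 to 98.8% of the summed length of the shortest group, depending on the library. It covered 94.6 to 98.2% in the second, 92.9 to 97.6% in the third and 81.8 to 88.2% in the longest group. A score of at least 3100 was reached by 0% of the shortest group and by 51.0 to 62.5% of the longest. The islands over the regions had nearly the same median size in each group, 7200 to 12000 bp in the shortest and 8000 to 12400 bp in the longest.

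The profile of H3K27me3 around bivalent regions is highest at the middle by construction, since islands of these 5 libraries had to touch them. At the middle of the region, 95.9% were under an island in young 2, 93.7% in young 3, 92.1% in old 1, 96.0% in old 2 and 92.2% in old 3. At 5 kb from the middle the shares were 47.4%, 45.8%, 45.9%, 61.3% and 49.3%, and at 30 kb they were 15.7%, 18.6%, 15.9%, 19.6% and 17.4%. Old 2 was broader than the other 4 libraries at every distance named here.

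**Figure D2:**
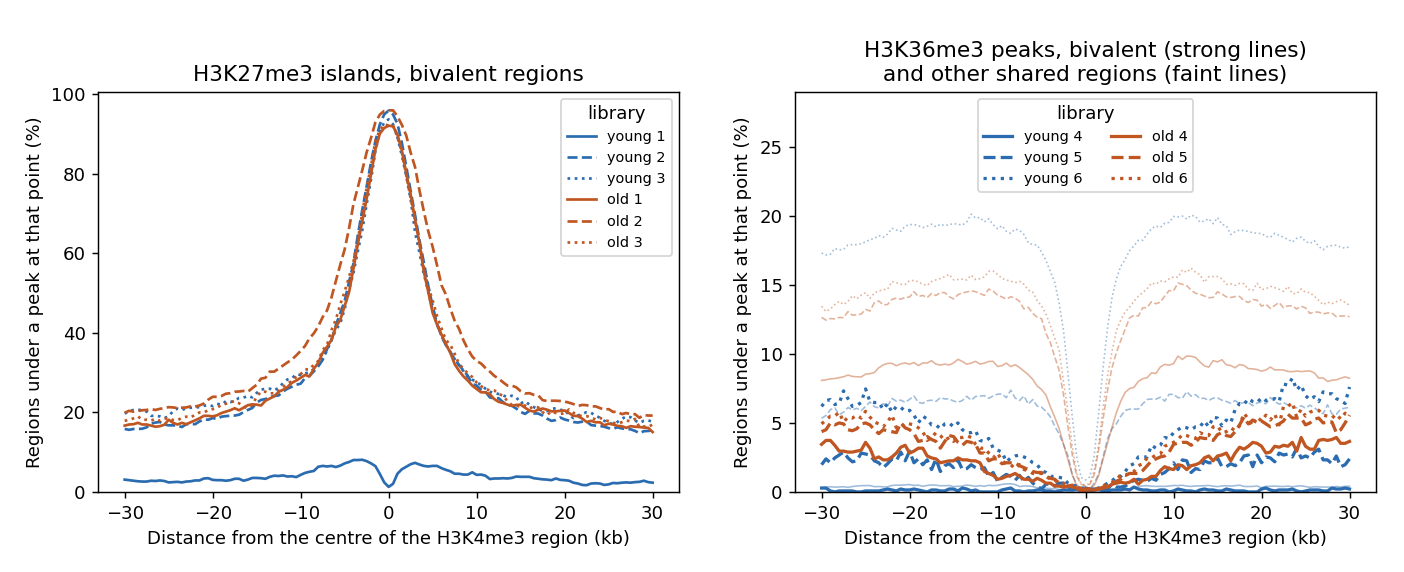
Share of regions (percent) that lie under a peak at each distance (kb) from the middle of the H3K4me3 region, per library (blue young, orange old). Left, H3K27me3 islands over the 1421 bivalent regions, where 5 libraries peak at 92.1 to 96.0% and young 1 falls to 1.27% at the middle; right, H3K36me3 peaks over bivalent (strong lines) and other shared regions (faint lines), where the bivalent lines stay lower at 10 kb in each library and the lines dip at the middle, except that of young 4 over bivalent regions, which stays near 0 throughout.

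Young 1 showed another shape around the same regions. Its islands covered 1.27% of the bivalent regions at the middle, 4.54% at 1 kb, 6.76% at 2 kb, 6.86% at 5 kb, 4.29% at 10 kb and 2.71% at 30 kb. Its profile therefore dipped where the other 5 libraries had their peak. It still touched bivalent regions more often (7.53%) than regions touched by 1 to 4 of the other libraries (27 of 1292, 2.09%) or by none (80 of 11776, 0.679%).

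Islands over bivalent regions were long for their list. The median island over a bivalent region was 9000 bp in young 2, 8000 bp in young 3, 8200 bp in old 1, 12400 bp in old 2 and 8400 bp in old 3. The median over the whole list was 5000, 3000, 3000, 6800 and 2600 bp. A longer island is more likely to touch any region, so the rule favours this difference, and it is given as a description. Islands of 20 kb or more lay over 208, 182, 160, 374 and 174 of the bivalent regions, again with old 2 highest.

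Most bivalent regions were inside H3K27me3 and not beside it. H3K27me3 covered 93.3% of their summed length in young 2, 90.9% in young 3, 89.8% in old 1, 94.3% in old 2 and 90.1% in old 3. All 5 libraries covered 932 regions from end to end (65.6%), and 1238 were covered over at least 50% of their length by each of the 5. The remaining 183 had less than 50% of their length under an island in at least 1 library. The smallest overlap that let a region in was 15 bp, and 29 regions had an overlap under 200 bp, the width of 1 step of the island grid, in some library.

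Just outside the rule were 303 shared regions touched by 4 of the 5 libraries. The library that missed them was old 1 for 112, old 2 for 67, old 3 for 59, young 2 for 33 and young 3 for 32. In 104 of the 303, the missing library had an island within 5 kb. Their median H3K27me3 coverage within 5 kb, averaged over the 5 libraries, was 4498 bp, against 8437 bp over the bivalent regions.

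The merged H3K27me3 domains that held bivalent regions mostly held 1. Of 71865 domains merged over the 5 libraries, 5973 were held by all 5, and 1313 of those contained a bivalent region (22.0%). Counting every domain with a bivalent region gave 1320, of which 1218 held 1, 94 held 2, 7 held 3 and 1 held 4. The share with a bivalent region was higher among longer domains, from 16.3% at 2 to 5 kb through 19.6% at 5 to 10 kb, 22.2% at 10 to 20 kb and 28.6% at 20 to 50 kb to 37.3% at 50 kb and more. Longer domains offer more room for any region, and even at 50 kb and more 88 of 236 domains held one.

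The domain with 4 bivalent regions, at chr15:102570201-102983000, was also the longest of those with at least 3. Its islands covered 379600 bp in young 2, 372600 bp in young 3, 365000 bp in old 1, 403200 bp in old 2 and 356800 bp in old 3, of 412800 bp. The 4 bivalent regions in it were 1032 to 1980 bp long, on both sides of the median of 1623 bp over all bivalent regions. At chr15:102828667-102830646 the H3K4me3 covered 957 bp in young 7 and 971 bp in young 8, against 1293 bp in old 7 and 1803 bp in old 8, so the old libraries were higher. At chr15:102932106-102933137 the values were 950, 402, 1032 and 817 bp, and the ages overlapped.

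**Figure D3:**
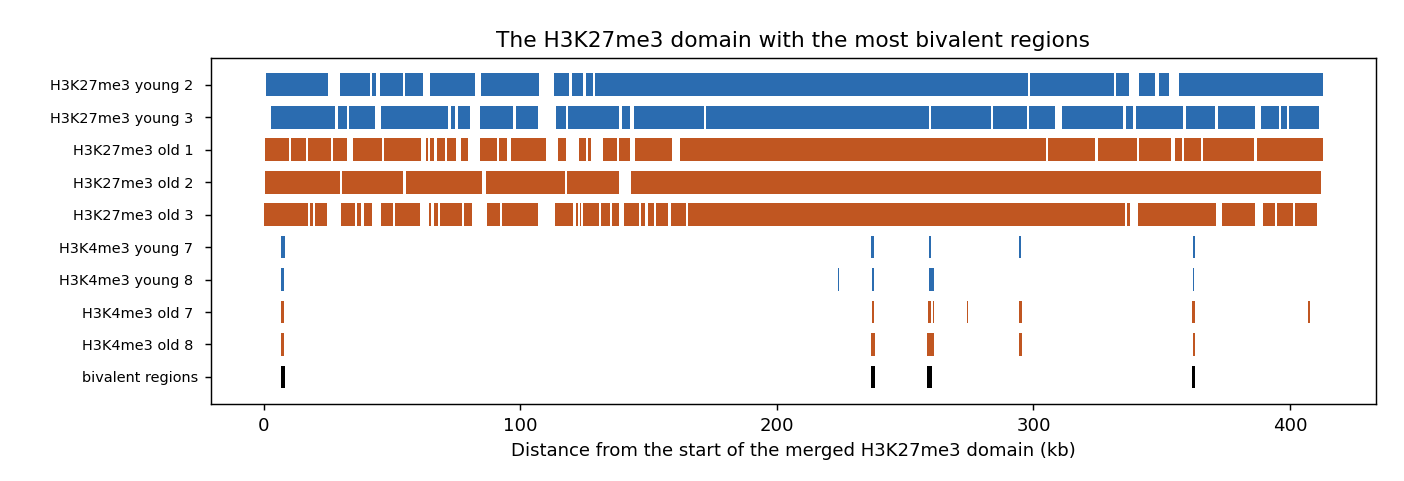
Islands of H3K27me3 (5 libraries), peaks of H3K4me3 (4 libraries) and the 4 bivalent regions (black) along the 412800 bp domain on chromosome 15, as distance in kb from its start (blue young, orange old). H3K27me3 is nearly continuous in each library, between 356800 and 403200 bp, and the H3K4me3 peaks are isolated short bars; peaks outside the black bars were not found in all 4 libraries.

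Of the 7 domains that held 3 bivalent regions, the 4 with the largest mean covered length are named. They were chr19:44655201-44992600, with 300000 to 328600 bp of islands per library, chr9:91219601-91333000, with 84400 to 106000 bp, chr14:122844801-122897200, with 44600 to 52200 bp, and chr15:79296601-79351600, with 23000 to 53000 bp. In each of these 4 domains every shared H3K4me3 region was bivalent, while chr19:46203601-46229000, among the 3 not named by length, held 4 shared regions, 3 of them bivalent. Among the 4 named by length, the covered length of chr15:79296601-79351600 varied most between libraries, from 23000 bp in old 1 to 53000 bp in old 2.

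Bivalent regions were spread over the chromosomes and lay farther from other shared regions than those lay from each other. Chromosome 12 had the highest share of its shared regions bivalent, 73 of 510 (14.3%), and chromosome X the lowest of those with more than 4 shared regions, 19 of 469 (4.05%). Chromosome 16 (6.92%) and chromosome 19 (6.94%) came next, and the 4 shared regions of chromosome Y held none. The nearest other bivalent region was at a median distance of 376930 bp, which depends on their smaller number too. Another bivalent region lay within 10 kb of 161 of them (11.3%), and an other shared region within 10 kb of 130 (9.15%). Of the other shared regions, 138 (1.06%) had a bivalent one that close. Their nearest other shared region was at a median of 67405 bp, while other shared regions had a neighbour of their own kind at a median of 29351.5 bp, within 10 kb in 22.5%.

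H3K36me3, which played no part in the choice of the regions, was scarce around bivalent regions. A peak lay within 10 kb of 1.97% of them in young 4, 11.3% in young 5, 14.7% in young 6, 8.23% in old 4, 11.0% in old 5 and 11.9% in old 6. For the other shared regions the shares were 4.92%, 56.0%, 67.4%, 45.3%, 55.9% and 59.4%. The bivalent share was lower in 6 of 6 libraries, and the mean was 9.85% ± 4.38 (SD, n = 6) against 48.2% ± 22.3 (SD, n = 6). The difference of -38.3 percentage points (SD 18.05, n = 6) had p = 0.03125 by a two-sided exact sign-flip permutation test over libraries, the smallest p that 6 libraries allow.

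Shared regions touched by 1 to 4 of the H3K27me3 libraries had an intermediate share, 2.94% in young 4, 23.8% in young 5, 30.8% in young 6, 18.3% in old 4, 24.7% in old 5 and 26.0% in old 6. Bivalent regions were below them in 6 of 6 libraries as well, by 11.2 percentage points (exact sign-flip permutation p = 0.03125, two-sided), in a comparison added after seeing the data. The ages were not separated: the bivalent shares of old 4, 5 and 6 all fell between those of young 4 and young 6. Bivalent regions also lay farther from other shared regions, as given above, and the part of this distance in the H3K36me3 shares was not tested.

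**Figure D4:**
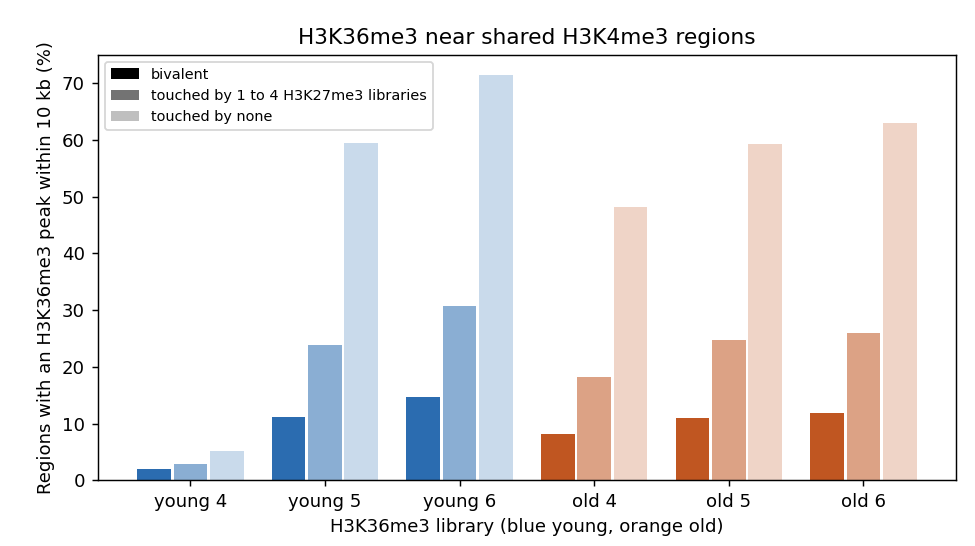
Percent of shared H3K4me3 regions with an H3K36me3 peak within 10 kb in each of the 6 libraries (blue young, orange old). Dark bars are bivalent regions (1.97 to 14.7%), middle bars regions touched by 1 to 4 of the 5 H3K27me3 libraries (2.94 to 30.8%), and pale bars regions touched by none; the dark bar is the lowest in each library, and young 4 is low for all 3.

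On the regions themselves H3K36me3 was rare everywhere. A peak touched 4 bivalent regions in young 4, 7 in young 5, 7 in young 6, 7 in old 4, 7 in old 5 and 10 in old 6, between 0.281% and 0.704%. The other shared regions were touched in 0.138%, 2.94%, 7.37%, 1.70%, 3.80% and 4.30%. The bivalent share was lower in 5 of 6 libraries, with young 4 the exception. The mean difference was -2.88 percentage points (0.493% ± 0.134 against 3.37% ± 2.47, SD, n = 6), with an exact sign-flip permutation p = 0.0625, two-sided, so the difference did not pass 0.05. When a peak had to cover at least 50% of a region, the mean difference was 0.00808 percentage points (p = 0.8125, same exact test).

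Without young 4, 1186 bivalent regions (83.5%) had no H3K36me3 within 10 kb in any of 5 libraries and 86 (6.05%) had it in all 5. For the other shared regions these shares were 28.5% and 39.3%. In the 86 regions, H3K27me3 covered 80.4 to 85.4% of the summed length, depending on the library, against 92.0 to 96.3% in the 1186. A score of at least 3100 was reached by 20.9 to 26.7% of the 86 and by 14.6 to 18.7% of the 1186. The median H3K4me3 length was nearly the same in both, 1192 to 1392 bp and 1164 to 1406 bp.

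The bivalent regions with the most H3K36me3 around them were chr7:108969905-108971198, chr8:23169929-23172321, chr4:153330517-153332736, chr18:80492149-80493254 and chr6:52113164-52115049. In the first and the 10 kb to each side of it, H3K36me3 covered 5484 bp in young 5, 9098 bp in young 6, 4218 bp in old 4, 9138 bp in old 5 and 8106 bp in old 6, and 0 bp in young 4. H3K27me3 nonetheless covered all 1294 bp of it in all 5 libraries. The regions on chromosomes 18 and 6 were likewise fully under H3K27me3, with 3106 to 8473 bp and 4373 to 7130 bp of H3K36me3 around them in the same 5 libraries. At chr4:153330517-153332736, by contrast, H3K27me3 covered 84 bp (old 3) to 1284 bp (young 2) of 2220 bp. All 3 marks were therefore found within 10 kb of each other in 3 of these 5 places without an edge of the H3K27me3 island crossing the region.

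Only 11 bivalent regions were touched by H3K36me3 in any of the 5 libraries without young 4, and 6 of them in at least 4. Among these, chr7:19889358-19890852 had H3K36me3 over 1454 bp in young 5, 1495 bp in young 6, 472 bp in old 4, 1495 bp in old 5 and 1495 bp in old 6, and H3K27me3 over all 1495 bp in all 5 libraries of that mark. Its neighbour chr7:19891078-19896214 had 1838 to 3034 bp of H3K36me3 in those libraries. The regions chr9:3021846-3027937 and chr9:2999768-3003269, at the first assembled bases of chromosome 9 in mm9, were covered by all 3 marks and by young 4 too, over 1998 and 3008 bp. Chromosome starts in the mouse are rich in satellite repeats, whose reads are hard to place, and the part of repeats in these values was not tested. The last 2 regions were chr2:56963389-56970380, the longest of all, and chr8:121970114-121971501, where 11 to 211 bp were touched in 4 libraries.

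The study's design compares ages, and H3K4me3 over the bivalent regions was close to even between them. By limma on log2(bp + 200), fitted over 17307 merged regions with coverage in at least 2 libraries, 0 regions passed an adjusted p of 0.05 (Benjamini-Hochberg), 0% of all and 0 of 1421 bivalent. The smallest adjusted p of any region was 0.348. Before adjustment, p was under 0.05 for 1253 regions in all (7.24%), 1046 of them longer in old. It was under 0.05 for 70 bivalent ones (4.93%), 56 of them longer in old. The median difference, old minus young, was 0.04 over the bivalent and 0.01 over all regions on this log2 scale, and within the title number that both ages share (18) it was -0.13 over both. Leaving out 1 library left a lone library at 1 age, so only medians are given for those fits. The median over bivalent regions was 0.12 without young 7 and 0.13 without old 7, beside 0.05 and 0.10 over all regions tested. It was -0.05 without young 8 and -0.05 without old 8, beside -0.06 and -0.08, so its sign rests on single libraries.

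Both old libraries exceeded both young ones in 279 bivalent regions (19.6%), where the background over all regions tested was 16.5%. Both old libraries were below in 175 bivalent regions (12.3%), where the background was 14.6%. Differences were small: 90% of the bivalent regions lay between -0.34 and 0.49. On the log2 scale 4 differed by 1 or more, all of them longer in old, a count not made over all regions tested. With peaks at or above the median score of their list, 306 bivalent regions entered, of which 53 (17.3%) were longer and 59 (19.3%) shorter in old, beside 1206 longer and 1752 shorter of 9924 regions in all. These counts turn with single libraries. Without young 8, 377 bivalent regions were longer and 543 shorter in old, beside 4284 and 6882 of all 16963 regions. Without old 8 the counts were 344 and 535, beside 2662 and 7551 of 16090. Without young 7 they were 718 and 261, beside 6965 and 3892 of 16887. Without old 7 they were 720 and 243, beside 7553 and 3198 of 16272.

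The bivalent regions whose H3K4me3 was longest in old relative to young, among those whose ages did not overlap, were on chromosomes 4, 16 and 15. At chr4:22414748-22418024 the peaks covered 483 bp in young 7, 1529 bp in young 8, 1980 bp in old 7 and 2991 bp in old 8. At chr16:18776642-18779220 they covered 847, 1045, 1841 and 2579 bp, a log2 difference of 1.06 (SE 0.21, limma adjusted p = 0.348). At chr15:87374050-87375657 they covered 743, 537, 1451 and 1608 bp. The first rested partly on young 7, whose value was far below the other 3, and at the other 2 positions the values were closer within each age.

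The largest differences in the other direction were smaller. At chr12:24936248-24937905 the H3K4me3 covered 1563 bp in young 7, 1562 bp in young 8, 597 bp in old 7 and 986 bp in old 8, a log2 difference of -0.86 (SE 0.26, limma adjusted p = 0.421). At chr4:46356202-46358217 the values were 1560, 1220, 932 and 595 bp, and at chr15:84276076-84277324 they were 1222, 989, 666 and 554 bp. All 3 stayed above 500 bp in each old library, so the mark was shorter there and not lost, as the rule demands.

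**Figure D5:**
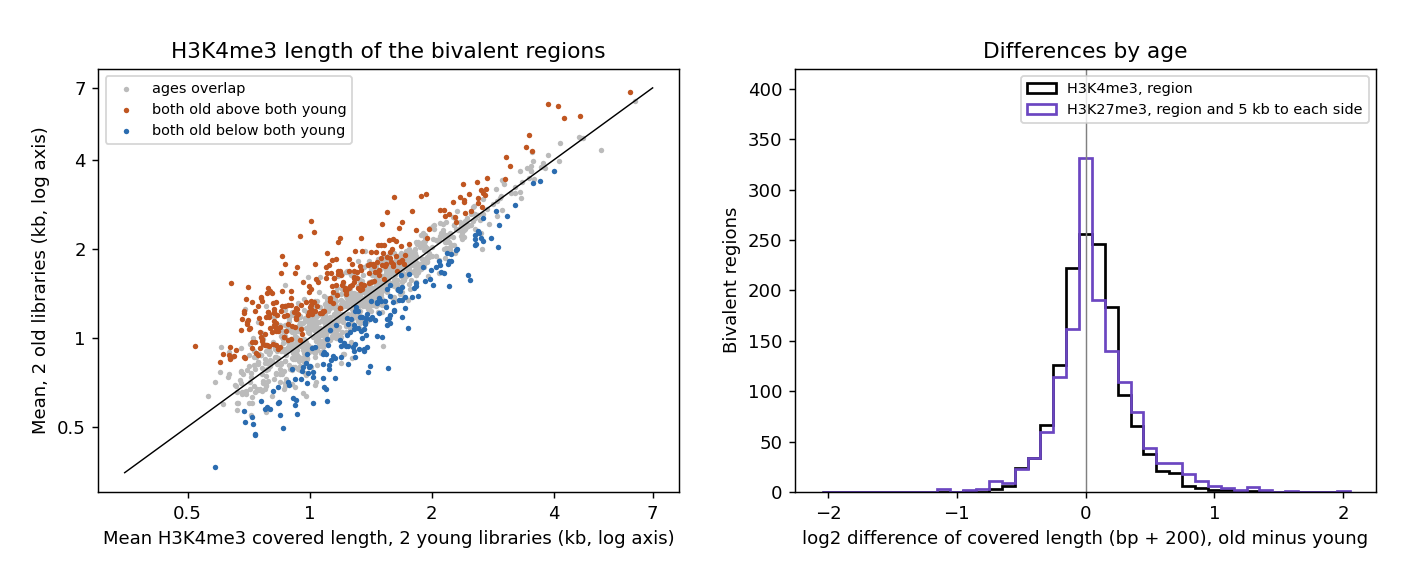
Age comparison of the 1421 bivalent regions. Left, mean H3K4me3 covered length in the 2 young against the 2 old libraries (kb, log axes, each point 1 region, line of equality), with 279 regions where both old libraries were above both young and 175 where they were below; right, histogram of the log2 difference in covered length (bp + 200), old minus young, for H3K4me3 in the region and for H3K27me3 in the region and 5 kb to each side, both centred near 0 with medians of 0.04.

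H3K27me3 around the bivalent regions, within 5 kb to each side, had overlapping levels at both ages. The median coverage was 8420 bp in young 2, 8186 bp in young 3, 8184 bp in old 1, 9898 bp in old 2 and 8356 bp in old 3. Old 2 was the highest library and the other 4 lay close together, so the ages overlapped. All 3 old libraries exceeded both young ones in 196 bivalent regions (13.8%, background 11.0%) and were below both in 74 (5.21%, background 11.8%). The background includes regions with no H3K27me3 at all at 1 age, which the rule keeps out of the bivalent set, so the shares are not like for like. Without old 2 the direction turned, with 217 bivalent regions higher and 246 lower in old, beside 538 and 703 of all 3201 regions. In the region alone, without its sides, the counts were 22 and 12, beside 53 and 216 of 2258.

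By limma over 3352 shared regions, 182 passed an adjusted p of 0.05 (5.43%), of which 141 had 0 bp in all old and 32 had 0 bp in all young libraries. Of the 1421 bivalent regions 7 passed, 5 higher and 2 lower in old. Before adjustment, p was under 0.05 for 409 regions in all (12.2%), 189 of them higher in old. It was under 0.05 for 123 bivalent ones (8.66%), 102 of them higher in old. The 409 include regions with 0 bp at 1 age, which the rule keeps out of the bivalent set. The median difference over bivalent regions was 0.04, and within title numbers 18 and 20, held by both ages, it was 0.11 and 0.00. Under 7 of 8 other settings of this fit 0 of the 1421 passed, and leaving out old 1 also gave 0. Leaving out old 2 gave 4, beside 194 of all 3201 regions, and leaving out old 3 gave 9, beside 258 of all 3085. Leaving out young 2 or young 3 left 1 young library, and the bivalent median was then 0.04 and 0.

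In the 7 regions that passed, the ages did not overlap. At chr3:38783301-38787397 H3K27me3 covered 6000 bp in young 2, 6600 bp in young 3, 11697 bp in old 1, 12597 bp in old 2 and 12597 bp in old 3, a log2 difference of 0.94 (SE 0.07, limma adjusted p = 0.0341). At chr12:4037998-4039500 the values were 5400, 4800, 11203, 10900 and 9603 bp, and at chr6:38612359-38613678 they were 3400, 3000, 7642, 9878 and 7600 bp. In these 3 every old library was far above both young ones.

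The 2 others that rose, chr15:83935337-83936535 and chr2:79293847-79294584, did so by 0.47 and 0.27 on the log2 scale. At chr8:73012961-73013991 H3K27me3 fell from 10191 bp in young 2 and 10191 bp in young 3 to 5791, 6591 and 6591 bp in old 1, 2 and 3, a difference of -0.67 (SE 0.10, limma adjusted p = 0.0400).

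The other region with less H3K27me3 in old was chr11:96142448-96149130, named above for its long H3K4me3. Within 5 kb of it H3K27me3 covered 15953 bp in young 2, 15683 bp in young 3, 12953 bp in old 1, 11953 bp in old 2 and 11753 bp in old 3, a log2 difference of -0.37 (SE 0.05, limma adjusted p = 0.0341). Its H3K4me3 covered 4657 and 3541 bp in young and 6206 and 5962 bp in old libraries, a difference of 0.56 (SE 0.15) that did not pass (limma adjusted p = 0.348). The ages did not overlap for either mark, in opposite directions. The 6683 bp of the region stayed fully under H3K27me3 in all 5 libraries, so the lower values came from the 5 kb to its sides.

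The largest non-overlapping differences of H3K27me3 with old higher were at chr12:119436800-119437910, chr9:50535702-50536741 and chr12:120476345-120477956, and none passed the test. At the first the coverage was 2600 bp in young 2, 1200 bp in young 3, 7401 bp in old 1, 6801 bp in old 2 and 8600 bp in old 3 (log2 difference 1.97, SE 0.42, limma adjusted p = 0.106). Those with old lower were at chr4:123340729-123343190, chr7:36118057-36120754 and chr12:112613771-112616932. At the first of these the coverage was 5200, 4000, 1600, 2600 and 1800 bp (log2 difference -1.14, SE 0.49, limma adjusted p = 0.517). A difference of 1 or more on the log2 scale was seen in 18 bivalent regions higher and in 3 lower in old. The same count was not made over all regions tested, so it has no background and gives no direction for the set.

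The age differences of the 2 marks were set side by side in each region. Of the 279 bivalent regions with H3K4me3 longer in both old libraries, 30 had H3K27me3 higher in all old libraries, 18 had it lower and 231 overlapped, beside 13.8% higher and 5.21% lower over all bivalent regions. Of the 175 with shorter H3K4me3, 19 had H3K27me3 higher, 7 had it lower and 149 overlapped. In 771 regions (54.3%) the ages overlapped for both marks. The libraries of the 2 marks may share animals through their title numbers, so these counts are given without a test.

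H3K36me3 within 10 kb could be compared in few bivalent regions, since 192 of 1421 had coverage in enough libraries to enter the fit over 8540 shared regions. By limma 0 of these 192 and 0% of all regions passed (smallest adjusted p = 0.882), and before adjustment p was under 0.05 for 0 of the 192 and for 12 of all. All old libraries exceeded all young in 9 of the 192 (background 1.93%) and were below in 0 (background 0.0468%). Regions that entered this fit had to have H3K36me3 in some library, so the 192 do not stand for the whole. Without young 4, 9 of 191 bivalent regions were higher and 14 lower in old, beside 167 and 303 of all 8524. Without young 6 the counts were 69 and 0 of 169, beside 4053 and 4 of 7873. Without old 4 they were 28 and 0 of 188, beside 683 and 6 of 8455. The median difference over bivalent regions was 0.88 with the 6 libraries, -0.09 without young 4 and 1.77 without young 6. Over all regions tested it was higher each time, 1.15, -0.003 and 2.24 in the same order. Within title number 16 (young 4 and old 4) the bivalent median was 1.45, beside 2.82 over all regions. Within 18 (young 5 and old 6) it was 0.98, beside 1.10, with 156 bivalent regions higher and 27 lower in old.

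Among the 9 were 3 neighbours on chromosome 2, chr2:18597451-18600461, chr2:18609984-18612511 and chr2:18615221-18617069, whose windows share the same peaks, so 3 of the 9 rest on 1 set of peaks. H3K36me3 covered 0 bp there in young 4, 5 and 6, and 1066, 1124 and 693 bp in old 4, 5 and 6. These 3 regions thus passed the filter on coverage only through the old libraries, and could not have been lower in old. At chr11:86620079-86621697 the values were 0, 0 and 716 bp in the young and 2650, 2367 and 1958 bp in the old libraries. None of these 4 regions passed the test (limma adjusted p = 0.882 for each). Without young 4, both young libraries and no old one had H3K36me3 near 11 bivalent regions (0.774%, 1.58% of the other shared regions). All 3 old and no young had it near 3 (0.211%, against 0.130%). Those 3 were the neighbours on chromosome 2, so this count too rests on 1 set of peaks.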

How the data were processed

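ChIP-seq peak lists of H3K4me3 (4 libraries), H3K27me3 (6) and H3K36me3 (6) were used, 1 list per library. The submitters' processing notes name mm9 and the tools SICER, MACS and CASAVA 1.4. The aligner, thresholds, controls, depth and the versions of SICER and MACS were not given in the sources used here, so no counting interval could be given, and peak number and length depend on depth and enrichment. The deposited score of each peak has no stated unit and was used to rank or filter peaks within a list and, as a description, set side by side between lists, whose scales may differ. H3K27me3 islands lie on a 200 bp grid.

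Peaks were merged where they overlapped or touched, and bp under peaks were counted per library. Old and young were compared by limma 3.58.1 (R 4.3.3) on log2(bp + 200), with trend and Benjamini-Hochberg adjustment. Regions with coverage in at least 2 libraries entered. For H3K4me3 these came from all merged regions, without their sides. For H3K27me3 (without young 1) and H3K36me3 they came from the shared regions, with 5 kb and 10 kb to each side. Exact permutation tests across 2 against 2 or 2 against 3 libraries cannot pass 0.05. H3K36me3 shares were compared by an exact sign-flip test over libraries. Python 3.11.15, numpy 2.4.6, pandas 2.3.3, scipy 1.17.1 and matplotlib 3.10.9 were used. After the fits, the limma code was also run on data simulated from the fitted regions, with results not given here.

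Regions named are the 5 longest, the 5 domains with most bivalent regions (ties by mean covered length), the 3 largest non-overlapping age differences in each direction per mark, the 5 with most H3K36me3, and those at the edge of the rule. The regions passing limma, and those touched by H3K36me3, were named after their values were seen. The members and lists were chosen with earlier results of these data known. Gene lists and promoter sequences were not used here, because the annotation at hand is on another build.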

Additional observations from a re-analysis of the deposited data

Results flagged for a closer look

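Young replicate 1 of H3K27me3, which the rule and the age comparison leave out, had islands on 107 of the 1421 bivalent regions, or 7.53%. It was taken up because this signal in unused data was above the level in shared regions that none of the other 5 libraries touched, which was 0.679% (80 of 11776). Regions touched by 1 to 4 of the 5 libraries had 2.09% (27 of 1292). The islands of young 1 covered 1.27% of the bivalent regions at their middle and 6.76% at 2 kb from it. The other 5 libraries covered 92.1 to 96.0% at the middle. The cause of the difference between this library and the others was not tested.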

How the results depend on the processing

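The number of bivalent regions was 173 with peaks at or above the median score of each list, 107 when young 1 was required too, and 1446 to 1579 when 1 library of either mark was left out, where fewer lists have to agree. For H3K27me3 the number of regions called between the ages, 182 of 3352, was 0 with a pseudocount of 1000 bp, with no filter on coverage, with each library centred on its median, with the stricter score, with young 1 included and with 20 kb to each side, and 0 to 258 over the fits without 1 library. It was 161 for the region alone, 5 of them bivalent. The median H3K27me3 difference over bivalent regions was 1.81 with young 1 and 0 to 0.07 without 1 library. For H3K4me3, leaving out 1 library gave 16 to 94 calls (0 to 15 bivalent) and medians of -0.05 to 0.13. For H3K36me3 the fits without 1 library gave 0 calls and bivalent medians of -0.09 to 1.77. Over all regions tested these medians were -0.003 to 2.24. The share of bivalent regions with H3K36me3 within 10 kb was lower than that of other shared regions under each alternative run, by -45.4 to -35.4 percentage points without 1 library (exact p = 0.0625 each, the smallest that 5 libraries allow), -45.4 being the value without young 4. The share touched by H3K36me3 differed by -3.49 to -2.08 without 1 library and by 0.00808 when 50% of the region had to be covered. The cause was not tested except where fewer libraries or regions entered by construction.

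The replicate numbers in the labels were not shown to pair the samples. Deviations of same-numbered libraries correlated at 0.0046 for H3K4me3, at 0.086 and 0.055 for H3K27me3, and at 0.15, 0.011 and 0.095 for H3K36me3, over regions, which are not independent. Replicate numbers and title numbers pair some libraries differently, and no block by title number was run. Young 5 and old 6 of H3K36me3, which share a title number, correlated at 0.096. With the replicate block, 0 regions were called for each mark, with a smallest adjusted p (limma) of 0.430 for H3K4me3, 0.300 for H3K27me3 and 0.664 for H3K36me3, and the median H3K27me3 difference over bivalent regions was 0.07.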
